A study of Mus musculus with 4 samples.

Results

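Metallothioneins are small cysteine-rich proteins that bind zinc and copper, and zinc transporters move the metal across membranes. The genes described here are *Mt1* and *Mt2*, the 2 broadly expressed metallothioneins, *Slc39a14*, a metal importer of the ZIP family that carries zinc and iron, *Slc30a8*, the ZnT transporter that loads zinc into the secretory granules of islet cells, and *Slc30a1*, the ZnT transporter that exports zinc through the plasma membrane. They were taken by symbol from the gene list of the count tables and are 5 of 31053 listed genes. They were chosen with their response in these same cells in view, so every comparison of their levels below is a description without a test.

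Islets of Langerhans from adult male C57BL/6 mice (C57BL6/J in the study's methods), pooled across animals and then split, were left untreated or cultured for 6 h with IL-1β, with IFN-γ, or with both cytokines, and were dissociated for droplet single-cell RNA sequencing of the 3′ ends of transcripts. Each of the 4 conditions is 1 library, and sets of 4 values below follow 1 order throughout: untreated first, then IL-1β, then IFN-γ, and the combination last. Differences between conditions therefore cannot be told apart from differences between libraries, and no replicate spread was available. The libraries held 3486, 2911, 3694 and 2480 barcodes, with 50731370, 20056630, 31209339 and 25716645 unique molecular identifiers (UMIs) in all. A cell was kept when it had between 200 and 4000 genes detected and no more than 12% mitochondrial UMIs, which left 1521, 2018, 2122 and 1810 cells with median depths of 15454, 7462.5, 9615 and 11123.5 UMIs. The upper gene limit alone removed 843 barcodes of the untreated library and 146, 345 and 222 of the treated ones. Across the libraries, 16 barcode sequences occurred more than once.

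Cells were classed by the share of their UMIs that came from hormone genes. β-like cells had at least 5% insulin (*Ins1* and *Ins2*), α-like cells at least 2% glucagon (*Gcg*) and δ-like cells at least 0.5% somatostatin (*Sst*), each with the other hormones below a ceiling. Of 7471 kept cells, 4855 were β-like, 875 α-like, 548 δ-like and 135 PP-like (at least 10% *Ppy*), while 285 with more than 1 hormone above its limit were held apart. Hormone levels follow from this choice, among them *Sst* at 83159 of every 1000000 δ-like UMIs. The listed markers, hormones included, were each present in at least 10% of cells for 7 of 7 β-cell markers in β-like cells, 6 of 6 α-cell markers in α-like cells and 5 of 5 δ-cell markers in δ-like cells. That limit is loose, since β-like cells also passed it for 4 of 6 α-cell markers, α-like cells for 4 of 7 β-cell markers and δ-like cells for 6 of 8 ductal markers. The δ-like class was the smallest of the 3 main classes, with 69, 167, 186 and 126 cells in that order, and the untreated α-like class held only 88 cells.

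Zinc is stored at high concentration with insulin in the granules of β cells, where it packs insulin into crystals, and it leaves the cell when the granules are secreted. Free zinc in the cytosol is kept very low. When it rises, the sensor MTF-1 binds metal response elements in the promoters of metallothionein genes and of *Slc30a1* and turns them on. Metallothionein genes are also known to respond to inflammatory cytokines and to glucocorticoids.

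*Mt1* and *Mt2* lie next to each other on chromosome 8 of the mouse genome (GRCm38), at chr8:94179082-94180327 and chr8:94172664-94173568, both on the plus strand. *Slc30a1* lies at chr1:191906767-191913247 on the plus strand, *Slc30a8* at chr15:52295553-52335798 on the plus strand, and *Slc39a14* at chr14:70303469-70351425 on the minus strand. The promoters of the 3 genes that MTF-1 is known to act on are shown because these are the members counted as at least 2-fold higher in β-like cells with IL-1β. The stretches end at the base before the first annotated start, are read in the direction of transcription, and come from RefSeq on GRCm38.p6. They are chr8:94178839-94179081 for *Mt1*, chr8:94172368-94172617 for *Mt2* and chr1:191906531-191906766 for *Slc30a1*. Capitals mark each match to the core of the metal response element, TGCACNC or TGCGCNC on either strand. The forms differ at 1 base, so a site cannot match both on the same strand.
Mt1: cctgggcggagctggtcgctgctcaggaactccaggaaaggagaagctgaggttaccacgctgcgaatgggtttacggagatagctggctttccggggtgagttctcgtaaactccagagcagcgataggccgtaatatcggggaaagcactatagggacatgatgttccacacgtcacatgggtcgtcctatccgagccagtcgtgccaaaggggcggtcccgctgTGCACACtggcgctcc
Mt2: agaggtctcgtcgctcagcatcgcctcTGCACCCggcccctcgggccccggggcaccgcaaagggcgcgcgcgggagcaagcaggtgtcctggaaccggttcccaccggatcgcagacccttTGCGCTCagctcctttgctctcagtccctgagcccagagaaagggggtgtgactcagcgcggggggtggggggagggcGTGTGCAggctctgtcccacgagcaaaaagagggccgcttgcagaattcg
Slc30a1: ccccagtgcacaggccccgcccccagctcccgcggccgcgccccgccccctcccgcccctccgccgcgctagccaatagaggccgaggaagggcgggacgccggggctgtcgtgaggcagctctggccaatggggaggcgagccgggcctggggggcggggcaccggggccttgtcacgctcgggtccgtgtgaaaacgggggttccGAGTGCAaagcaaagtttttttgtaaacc
In windows that run from 250 bases before to 50 bases after the RefSeq start, *Mt2* held 4 matches, *Mt1* held 3 and *Slc30a1* held 2. Of these, 3 in *Mt2* lay before the start, at -223, -128 and -50, 1 in *Mt1* lay at -23 and 1 in *Slc30a1* at -43. Each position is the distance in bases from the start. The other matches lay after it, at 3 and 21 in *Mt1*, 5 in *Mt2* and 31 in *Slc30a1*, and are not in the stretches shown. Which side a match falls on depends on the annotated start, and the start used in these cells was not looked at. Among 32851 promoters of the same length, 25.7% held at least 1 match, 7.11% at least 2, 1.97% at least 3 and 0.517% at least 4. A match describes the letters only. *Slc39a1* and *Mtf1*, described below, held 0 matches in their windows, and *Slc30a4* held 3. *Slc39a14* and *Slc30a8* were not looked at in this way.

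The metallothioneins had the largest ratios of the 5 genes in β-like cells of all 3 treated libraries. In β-like cells *Mt1* made up 853 (840 to 866), 5240 (5194 to 5286), 1521 (1501 to 1541) and 3862 (3831 to 3894) CPM, the UMIs of a gene per 1000000 UMIs of its class. The interval after each level is the exact 95% Poisson interval of the summed UMIs and covers counting error only, not the spread between islet preparations. The IL-1β library stood highest, the combined library next, and IFN-γ alone lay much closer to untreated. *Mt2* followed the same order of libraries, at 224, 1950, 471 and 1800 CPM. Its order depended on the scale. With hormone UMIs removed from the totals, *Mt2* was at 2512 CPM with IL-1β and 2715 with both, so the combined library stood highest. *Mt1* was then at 6748 and 5827, with IL-1β still highest. Against untreated cells, *Mt1* was 6.14-fold higher for IL-1β (6.04 to 6.25), 1.78-fold for IFN-γ (1.75 to 1.82) and 4.53-fold for the combination (4.45 to 4.61), the intervals again covering counting error only. The ratios of *Mt2* were 8.71 (8.43 to 9.0), 2.10 (2.02 to 2.18) and 8.04 (7.79 to 8.30). Against IL-1β alone, the combination gave 0.737 times the *Mt1* and 0.923 times the *Mt2* of β-like cells, where the median of all tested genes was 0.797. For *Mt2* this direction turned with hormone UMIs removed, as the levels above show.

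**Figure D1:**
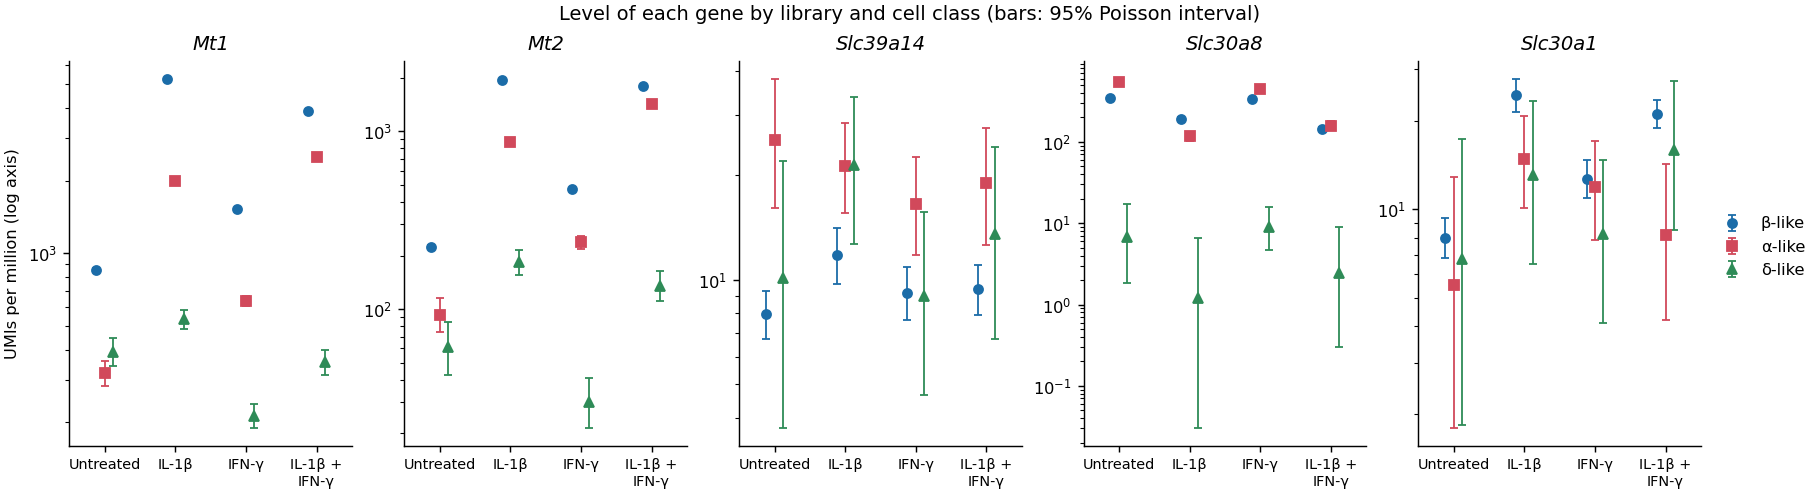
Level of each of the 5 genes in β-like, α-like and δ-like cells of the 4 libraries, in CPM on a log axis that differs between panels, with exact 95% Poisson intervals as bars. The β-like *Mt1* levels run from 853 untreated to 5240 with IL-1β, while the δ-like levels stay between 213 and 533.

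In α-like cells the same pair was again higher with IL-1β, but the order of the treated libraries differed. *Mt1* stood at 319, 1995, 636 and 2509 CPM and *Mt2* at 92.7, 867, 238 and 1420. Here the combined library was the highest, and it exceeded IL-1β alone by 1.26-fold for *Mt1* and 1.64-fold for *Mt2* (1.54 to 1.74). Against untreated α-like cells, *Mt1* was 6.25-fold higher in the IL-1β library (5.55 to 7.07), 1.99-fold in the IFN-γ library (1.76 to 2.27) and 7.86-fold in the combined one (6.97 to 8.89). *Mt2* was 9.35-fold (7.51 to 11.8), 2.56-fold (2.03 to 3.26) and 15.3-fold (12.3 to 19.3) higher. Much of the untreated α-like count came from few cells. Of 84 *Mt2* UMIs there, 46 (54.8%) came from 3 of 88 cells, and without the 3 cells with the most *Mt2* in each library the ratios were 19.1 for IL-1β, 4.95 for IFN-γ and 30.7 for the combination. Of 289 *Mt1* UMIs, 118 (40.8%) came from 3 cells, and the *Mt1* ratios without them were 9.76, 2.82 and 11.9 in the same order.

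δ-like cells stood apart. *Mt1* was at 391 (342 to 445), 533 (485 to 585), 213 (189 to 239) and 354 (314 to 397) CPM. The 4 values spanned a far narrower range than in β-like or α-like cells, and the untreated δ-like level was above the untreated α-like level of 319. The ratios to untreated were 1.36 for IL-1β (1.16 to 1.61), 0.545 for IFN-γ (0.457 to 0.651) and 0.906 for the combination (0.759 to 1.08). *Mt2* was at 60.9, 184, 29.9 and 135 CPM, from 36, 155, 40 and 110 UMIs. Its ratios were 3.02 for IL-1β (2.09 to 4.47), 0.491 for IFN-γ (0.305 to 0.792) and 2.22 for the combination (1.51 to 3.33). Thus *Mt2* was higher in the δ-like cells of both libraries that received IL-1β, whereas *Mt1* stayed nearer its untreated level. These *Mt2* ratios were below those of β-like and α-like cells, though the gap to β-like cells depended on a few cells. The difference between the classes was not tested, since each class has 1 library per condition.

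**Figure D2:**
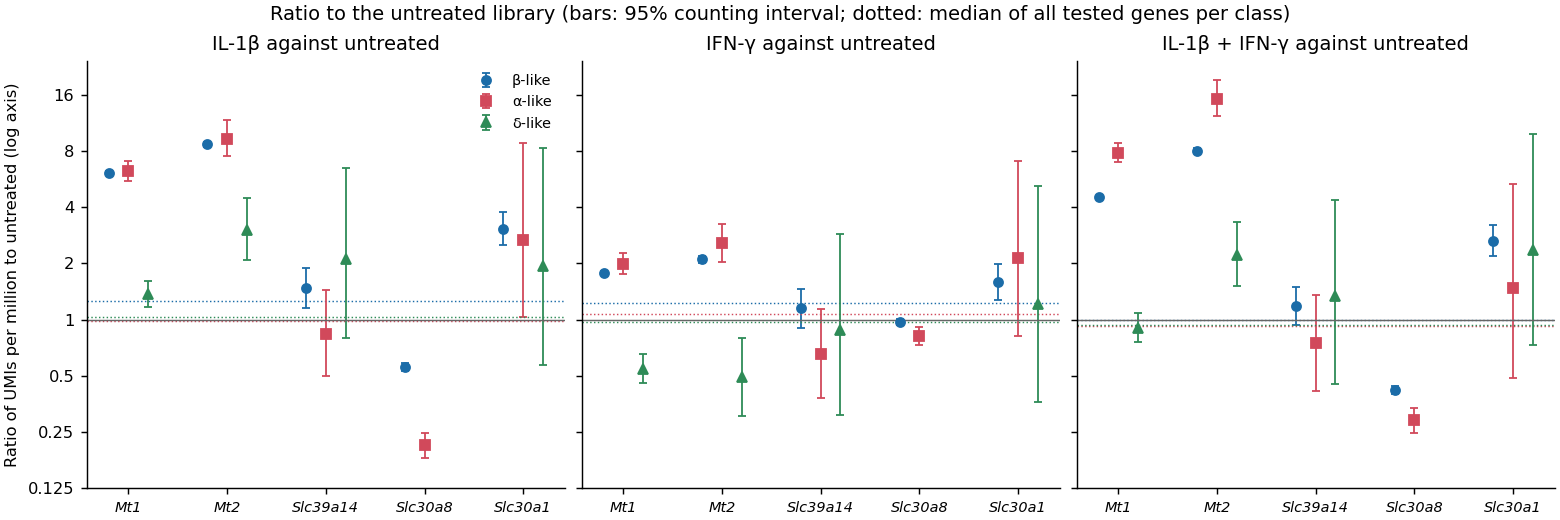
Ratio of each gene to the untreated library, on a log2 axis, in β-like, α-like and δ-like cells, with exact 95% counting intervals as bars. The *Mt1* points of δ-like cells lie at 1.36, 0.545 and 0.906, below those of β-like and α-like cells in every treated library. Dotted lines mark the median ratio of all tested genes in each class, and *Slc30a8* in δ-like cells is left out for its few UMIs.

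A few cells held much of the untreated δ-like *Mt2*. In that library, 25 of the 36 *Mt2* UMIs (69.4%) and 74 of the 231 *Mt1* UMIs (32.0%) came from the 3 δ-like cells with the most, among 69 cells. In the treated libraries the 3 richest cells held 21.3%, 17.5% and 40.0% of *Mt2* and 22.0%, 15.4% and 30.9% of *Mt1* UMIs. The 3 untreated cells richest in *Mt2* held 0.580% insulin UMIs. Without the 3 richest cells of each library, *Mt2* was at 19.5, 147, 25.1 and 83.3 CPM. The ratios then became 7.54 for IL-1β (4.07 to 15.5), 1.28 for IFN-γ (0.632 to 2.81) and 4.27 for the combination (2.24 to 8.96). The lower *Mt2* of the IFN-γ library thus did not hold without these cells. Taken in the same way, the β-like *Mt2* ratios of 9.07 with IL-1β and 8.40 with both lay inside the δ-like intervals. The α-like ratios of 19.1 and 30.7 lay above them. The smaller *Mt2* ratio of δ-like than of β-like cells thus rested in part on these few cells too. The *Mt1* ratios were steadier, at 1.51, 0.655 (0.533 to 0.806) and 0.903. The median δ-like cell held 1.91, 2.24, 1.26 and 1.69 *Mt1* UMIs per 10000 in the 4 libraries and 0 *Mt2* UMIs in each, against 4.33, 43.8, 9.08 and 34.1 *Mt1* UMIs per 10000 in the median β-like cell.

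The δ-like values also depended on which cells were counted. When cells were grouped by the similarity of their transcripts in place of hormone limits, the δ-cell clusters also took in 3, 74, 27 and 43 cells outside the δ-like class, of which 2, 62, 20 and 24 held more than 1 hormone. The added cells held 8.12%, 6.95%, 5.21% and 16.5% insulin UMIs, against 0.528%, 0.124%, 0.208% and 0.185% in the δ-like cells of the same clusters. Glucagon made up 0.0159%, 4.05%, 2.42% and 1.03% of their UMIs, against at most 0.0347% in the δ-like cells, and their median depth was 8222, 10724.5, 10912 and 12423 UMIs against 8725.5, 4755.5, 7171 and 5715. Their *Mt1* was at 39.9, 2021, 975 and 2334 CPM, the first from 3 cells only. With whole clusters, the *Mt1* ratios to untreated were 3.32, 0.882 and 2.99 with IL-1β, IFN-γ and both, and those of *Mt2* were 7.97, 1.67 and 8.55. Whether the added cells were doublets with β or α cells or single cells with several hormones was not tested. In the 3 treated libraries insulin, glucagon, depth and metallothionein were all higher in them than in the δ-like cells beside them.

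**Figure D3:**
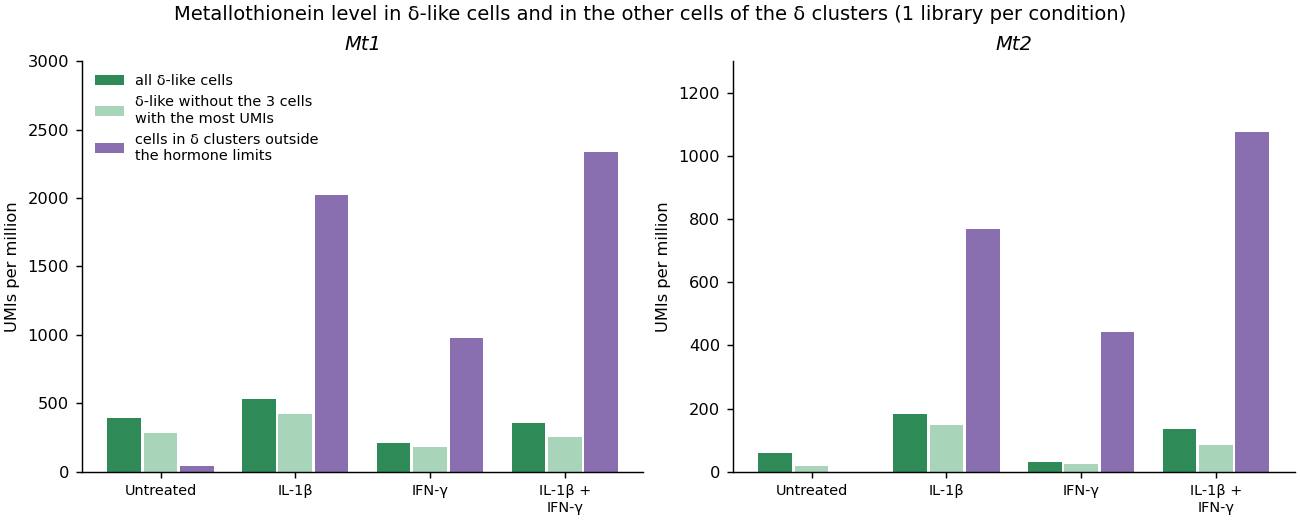
*Mt1* and *Mt2* level by library, in CPM (UMIs per 1000000), in all δ-like cells, in δ-like cells without the 3 with the most UMIs of the gene, and in cells of the δ-cell clusters outside the hormone limits. The untreated bar of the cells outside the limits rests on 3 cells, and the other such bars, at 975 to 2334 for *Mt1*, stand above the δ-like bars of the same library.

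RNA released from other cells reaches every droplet, so the levels were set against what β-cell RNA could bring. Insulin transcripts in δ-like cells were at 1.26%, 0.554%, 0.739% and 0.549% of the level in β-like cells. Scaled by that share, β-like *Mt1* would give 10.7, 29.0, 11.2 and 21.2 CPM in δ-like cells, and β-like *Mt2* would give 2.81, 10.8, 3.47 and 9.88. The measured δ-like levels were above these in all 4 libraries. Other genes known to respond to IL-1 were followed from a list of 10 acute-phase and NF-κB genes. With IL-1β, 7 could be compared in δ-like cells and all 7 were at least 2-fold higher with an interval that left out 1, at a median of 10.9-fold, where 9.12% of all tested genes were so and their median was 1.03. How this bears on the metallothioneins was not tested. *Nfkbia*, which encodes an inhibitor of NF-κB, was at 74.4, 815, 89.7 and 1533 CPM in δ-like cells and was 10.9-fold higher with IL-1β and 20.6-fold with both. Its ratios in β-like cells were 9.88 and 12.7. *Sod2*, the mitochondrial superoxide dismutase, differed more between the classes, at 3.55-fold and 4.75-fold in δ-like cells against 10.3-fold and 9.54-fold in β-like cells.

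The share of cells with a metallothionein transcript was compared after drawing 4000 UMIs from every cell, because depth differed between libraries and classes. Shallower cells were left out, which removed 33, 74, 50 and 31 β-like, 6, 34, 12 and 4 α-like and 4, 45, 18 and 20 δ-like cells. After this thinning, *Mt2* was seen in 36.9%, 92.4%, 59.3% and 90.9% of β-like cells. The corresponding α-like shares were 19.5%, 67.9%, 41.8% and 80.9%, and the δ-like shares were 13.8%, 27.9%, 10.7% and 20.8%. In δ-like cells the exact binomial 95% intervals, 6.53% to 24.7% untreated and 20.1% to 36.7% with IL-1β, overlapped. *Mt1* was seen in 56.9%, 56.6%, 44.6% and 48.1% of δ-like cells, with neither library that received IL-1β above untreated, while in β-like cells it went from 76.1% to 98.6% with IL-1β. Without thinning, the *Mt2* shares were 66.0%, 94.5%, 78.9% and 96.3% of β-like cells, 31.8%, 72.8%, 51.7% and 86.7% of α-like cells, and 18.8%, 30.5%, 17.2% and 27.8% of δ-like cells.

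**Figure D4:**
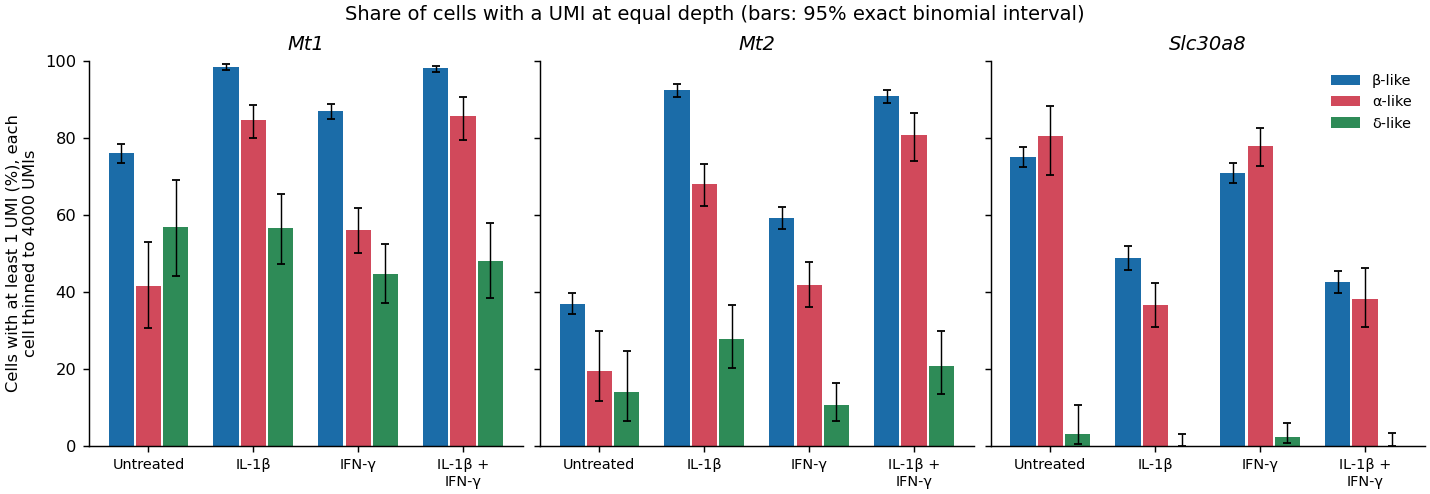
Percent of cells with at least 1 UMI of the gene after thinning each cell to 4000 UMIs, for β-like, α-like and δ-like cells of each library, with exact 95% binomial intervals. The *Mt2* share of β-like cells goes from 36.9% untreated to 92.4% with IL-1β, and that of δ-like cells from 13.8% to 27.9% with overlapping intervals.

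Within a library, the pair moved together from cell to cell. Pearson's r between *Mt1* and *Mt2* was taken on the log2 of UMIs per 10000 with 1 added. Across β-like cells it was 0.774, 0.818, 0.780 and 0.845 in the 4 libraries, and across α-like cells it was 0.743, 0.777, 0.759 and 0.864. In δ-like cells it was lower, at 0.599, 0.649, 0.357 and 0.558, where both counts were small. These values are descriptions, since cells of 1 library share preparation and depth. *Mt2* also gained on *Mt1*, with 0.263, 0.372, 0.309 and 0.466 *Mt2* UMIs per *Mt1* UMI in β-like cells.

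*Slc30a8* moved the other way. In β-like cells it was at 344 (336 to 352), 192 (183 to 201), 335 (325 to 344) and 144 (138 to 150) CPM. The untreated and IFN-γ values were nearly the same, and both libraries with IL-1β were lower. The ratios were 0.557 for IL-1β (0.529 to 0.587), 0.973 for IFN-γ (0.938 to 1.01) and 0.419 for the combination (0.40 to 0.440). In α-like cells, *Slc30a8* was at 550, 117, 448 and 158 CPM and its ratios were 0.213 (0.182 to 0.248), 0.815 (0.732 to 0.909) and 0.288 (0.245 to 0.337). The untreated α-like level was thus above the β-like one and the IL-1β level below it. Thinned shares followed, with *Slc30a8* seen in 75.1%, 48.9%, 71.0% and 42.5% of β-like cells and in 80.5%, 36.5%, 78.0% and 38.3% of α-like cells.

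In δ-like cells *Slc30a8* was near background. It had 4, 1, 12 and 2 UMIs in the 4 libraries, or 6.77, 1.19, 8.97 and 2.46 CPM, against 4.33, 1.06, 2.47 and 0.793 that β-cell RNA would give at the insulin share above. The IFN-γ interval of 4.63 to 15.7 lay above its estimate, but 7 of the 12 UMIs (58.3%) came from 3 cells, and without them the level was 3.8 CPM. These counts are too few to compare libraries. At 4000 UMIs per cell it was seen in 3.08% and 2.38% of untreated and IFN-γ δ-like cells and in 0% with IL-1β and with both, where the exact binomial intervals reach up to 2.98% and 3.42%.

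*Slc30a1* was lowly expressed and, in CPM, followed the order of the metallothioneins in β-like cells. Its level was 7.99 (6.80 to 9.33), 24.6 (21.5 to 27.9), 12.7 (10.9 to 14.7) and 21.1 (18.9 to 23.6) CPM. With hormone UMIs removed from the totals it was at 31.6 with IL-1β and 31.9 with both, so the IL-1β library no longer stood highest. The ratios were 3.07 for IL-1β (2.50 to 3.78), 1.59 for IFN-γ (1.28 to 1.98) and 2.65 for the combination (2.18 to 3.22). In α-like cells it rested on 5, 32, 28 and 12 UMIs, and the IL-1β ratio of 2.68 had an interval of 1.04 to 8.80. That ratio was 1.31 at 4000 UMIs per cell and 11.5 (1.90 to 471) without the 3 cells with the most of its UMIs. In δ-like cells it had 4, 11, 11 and 13 UMIs, too few to order the libraries.

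*Slc39a14* differed little between libraries. It was at 7.94, 11.8, 9.14 and 9.40 CPM in β-like cells, where only the IL-1β ratio of 1.48 (1.15 to 1.90) had an interval that left out 1. When each cell was thinned to 4000 UMIs that ratio was 2.57, and with hormone UMIs removed from the totals it was 1.10. In α-like cells it was at 25.4, 21.2, 16.5 and 19.0 CPM, above the β-like level in all 4 libraries. In δ-like cells it rested on 6, 18, 12 and 11 UMIs, with an IL-1β ratio of 2.11 (0.800 to 6.48).

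A gene was counted as higher or lower when its ratio was at least 2-fold and its counting interval left out 1, among genes with at least 30 UMIs over both libraries. In β-like cells with IL-1β, 3 of the 5 genes were higher (*Mt1*, *Mt2* and *Slc30a1*) and 0 lower, where 16.4% of 11632 tested genes were higher and 6.1% lower. With IFN-γ only *Mt2* was higher and 0 were lower, where 5.47% of tested genes were higher and 0.655% lower. With both, the same 3 were higher and *Slc30a8* was lower, where the shares of all tested genes were 11.3% and 12.2%. In α-like cells with IL-1β the same 3 genes were higher and *Slc30a8* lower, where 7.36% of tested genes were higher and 7.23% lower. *Slc30a1* was no longer counted there, leaving 2, without an upper gene limit, at a mitochondrial limit of 20%, with hormone UMIs removed, at 4000 UMIs per cell and without the 3 richest cells. Without those cells its ratio was 11.5 (1.90 to 471), which met the fold and interval limits but not the 30 UMIs required. With IFN-γ only *Mt2* was higher, *Mt1* stopping just short of 2-fold at 1.99, where 4.34% were higher and 1.25% lower. With both, *Mt1* and *Mt2* were higher and *Slc30a8* lower, where the shares were 9.18% and 10.7%. In δ-like cells only *Mt1* and *Mt2* had enough UMIs to be tested. *Mt2* was higher with IL-1β, where 9.12% of tested genes were higher and 7.07% lower. It was lower with IFN-γ, where 3.49% were higher and 2.39% lower, and higher with both, where the shares were 12.5% and 13%. The 5 genes were chosen on these contrasts, so nothing is read from their counts.

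The scale itself shifted between libraries. Hormone genes made up 42.2%, 22.4%, 28.7% and 33.7% of β-like UMIs in the 4 libraries, which changes the total against which every other gene is scaled. The median ratio of all tested genes in β-like cells was 1.26 for IL-1β, 1.23 for IFN-γ and 1.0 for the combination, a shift of 0.34, 0.30 and 0.00 on the log2 scale. In α-like cells it was 0.979, 1.07 and 0.922, and in δ-like cells 1.03, 0.976 and 0.938. With hormone UMIs removed from the totals the β-like IL-1β ratios were 4.57 for *Mt1*, 6.49 for *Mt2*, 2.29 for *Slc30a1* and 0.415 for *Slc30a8*. The IFN-γ ratios were then 1.70 for *Mt2* and 0.789 for *Slc30a8*, the latter having been 0.973 in CPM.

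Other zinc genes were followed from lists of the metallothioneins, the ZnT and ZIP families and *Mtf1*, 29 genes with the 5 above. In β-like cells 20 could be compared. With IL-1β 7 were higher and 0 lower, where 16.4% and 6.1% of all tested genes were, and with IFN-γ 1 was higher, where 5.47% of all were. In the combined library 5 were higher and 1 lower, where 11.3% and 12.2% of all were. The medians of these genes were 1.51, 1.24 and 1.10, against 1.26, 1.23 and 1.0 over all tested genes. In α-like cells 5 were higher and 2 lower of 18 with IL-1β (7.36% and 7.23% of all genes), 1 higher of 17 with IFN-γ (4.34%), and 5 higher and 2 lower of 16 with both (9.18% and 10.7%). In δ-like cells 6 were higher of 10 with IL-1β (9.12% of all genes), 2 higher and 1 lower of 14 with IFN-γ (3.49% and 2.39%), and 4 higher of 9 with both (12.5%). The δ-like counts moved with the setting. At 4000 UMIs per cell 2 were higher with IL-1β and 2 with both, and without an upper gene limit 4 and 2 were. Neither the number of zinc genes with enough UMIs to compare nor the share of all tested genes was kept for these settings. A lower count thus cannot be told apart from fewer genes compared, and nothing is read from these moves.

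*Slc39a1*, a plasma membrane zinc importer, showed the largest ratios of the transporters compared in β-like cells, with levels of 10.5, 74.6, 18.3 and 73.9 CPM. Its ratios were 7.12 for IL-1β (6.09 to 8.34), 1.74 for IFN-γ and 7.04 for the combination. It was also higher in α-like cells (2.31 and 2.27 with IL-1β and with both) and in δ-like cells (2.21 and 3.48). *Slc39a6*, another ZIP importer, was at 20.8, 116, 34.6 and 77.4 CPM in β-like cells, a ratio of 5.56 with IL-1β (4.97 to 6.24) and 3.72 with both. In δ-like cells its ratios of 4.61, 2.40 and 3.53 rested on 7, 46, 38 and 34 UMIs.

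Among the exporters, *Slc30a4*, which loads vesicles with zinc, was 2.32-fold higher with IL-1β in β-like cells and 2.58-fold in α-like cells. *Slc30a7*, which supplies the early secretory pathway, was 2.44-fold higher with IL-1β in β-like and 2.01-fold in δ-like cells, and 2.04-fold with both in α-like cells. *Slc39a9*, a ZIP transporter, was 3.16-fold and 3.17-fold higher with IL-1β and with IFN-γ in δ-like cells, from 6 untreated UMIs, while its ratio with both was 1.21 (0.399 to 4.05). *Slc39a13*, a ZIP transporter of intracellular membranes, was lower in α-like cells with IL-1β (0.397) and with both (0.40). *Mtf1*, the zinc sensor, was at 15.2, 38.0, 23.9 and 36.9 CPM in δ-like cells, ratios of 2.50 with IL-1β and 2.42 with both, whereas in β-like cells they were 1.37 and 1.41. *Mt3*, the brain metallothionein, was at 2.65, 2.50, 3.38 and 2.72 CPM in β-like cells, and *Mt4* had 0 UMIs.

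**Figure D5:**
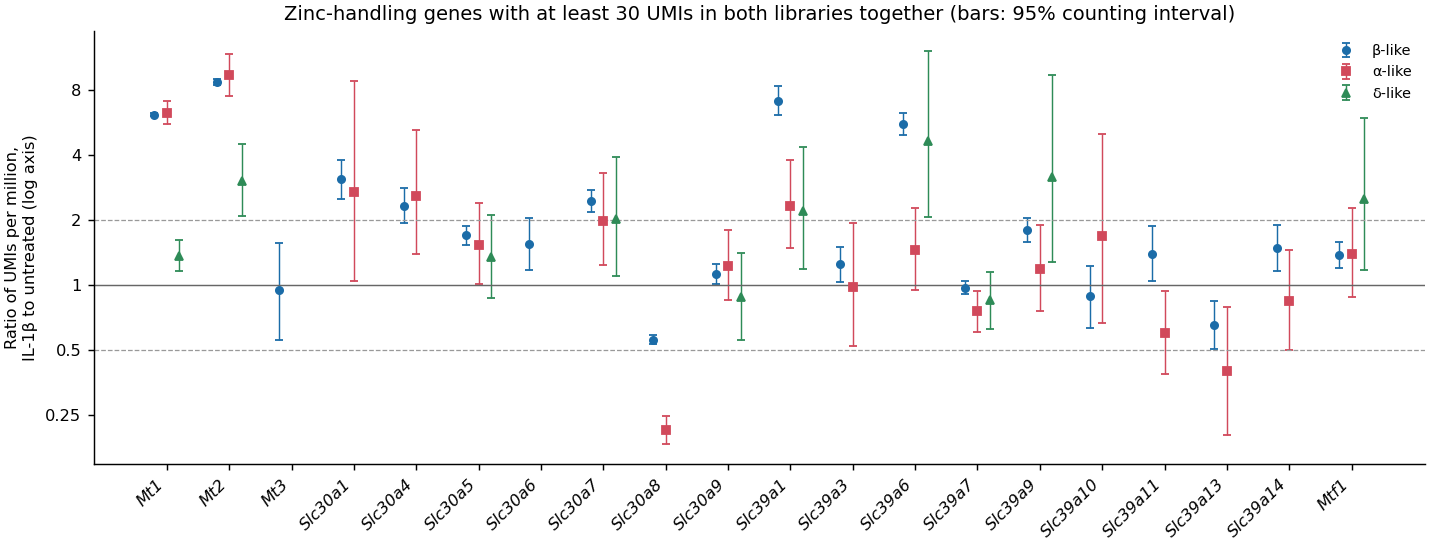
Ratio of the IL-1β library to the untreated library, on an axis spaced by log2, of the zinc genes with enough UMIs to compare in β-like, α-like and δ-like cells. *Slc39a1* is higher in all 3 classes, at 7.12, 2.31 and 2.21, and *Slc30a8* is lower in β-like and α-like cells, at 0.557 and 0.213.

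Lists of other metal and stress genes were counted beside the zinc genes. Of 15 other metal-handling genes compared in β-like cells with IL-1β, 5 were higher and 0 lower, at a median of 1.57, where 16.4% and 6.1% of all tested genes were and their median was 1.26. *Steap4*, a metalloreductase, was at 0.599, 354, 1.76 and 201 CPM. The ferritin subunits did not reach 2-fold in these cells, with ratios of 1.57 for *Fth1* and 0.658 for *Ftl1* with IL-1β. In δ-like cells with IL-1β, *Ftl1* was lower, at 0.496, and the ratio of *Fth1* was 0.690. All 10 IL-1 and acute-phase genes were higher in β-like cells with IL-1β, at a median of 17.8, and all 8 compared in α-like cells, at a median of 18.0, where 16.4% and 7.36% of all tested genes were.

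Of the glucocorticoid-responsive genes compared in β-like cells with IL-1β, 2 of 7 were higher and 1 lower at a median of 1.06, where 16.4% and 6.1% of all tested genes were and their median was 1.26. The higher genes were *Dusp1* (2.78), which encodes a phosphatase of MAP kinases, and *Errfi1* (5.14), an inhibitor of EGF receptor signalling, and the lower one was *Sgk1* (0.496), a serine/threonine kinase. *Tsc22d3*, a classic target of the glucocorticoid receptor, was at 17.4, 18.4, 33.1 and 18.6 CPM there. In δ-like cells 2 of 4 were higher with IL-1β, again *Dusp1* (4.39) and *Errfi1* (4.40), at a median of 2.72, where 9.12% of all tested genes were higher and their median was 1.03. Among α-like cells 1 of 6 was higher with IL-1β, *Errfi1*, at a median of 0.804. There 7.36% of all tested genes were higher and their median was 0.979. Heat shock genes were higher in β-like cells in 6 of 7 cases with IL-1β, 5 in the IFN-γ library and 7 in the combined one, at medians of 3.37, 2.35 and 2.81, where 16.4%, 5.47% and 11.3% of all tested genes were higher. For α-like cells the counts were 4, 1 and 4 of 7, where 7.36%, 4.34% and 9.18% of all were higher. The α-like medians were 2.05, 1.06 and 3.71, against 0.979, 1.07 and 0.922 over all tested genes. In δ-like cells 5, 4 and 6 of 7 were higher, where 9.12%, 3.49% and 12.5% of all were, with *Hspa1a*, the inducible HSP70, at 1.69, 330, 289 and 1391 CPM, the first from 1 UMI.

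The genes whose pattern was most like that of *Mt2* were found by Pearson's r of log2 levels, with 10 CPM added, over 12 points, the 3 main classes in 4 libraries. Points of 1 library share its depth and preparation. *Mt1* came first at 0.98, then *Glul*, which encodes glutamine synthetase, and *Tmed9* at 0.96, then *C2cd4a* and *Rassf4* at 0.94. *Glul* was at 136, 746, 317 and 731 CPM in β-like cells, the same order of libraries as *Mt2*. *Slc30a8* was most like *Skap1* (0.99), *Cadps* (0.97), *Gpd2* (0.95), *Lifr* (0.94) and *Rcan2* (0.93). *Slc39a14* was most like *Bloc1s2* (0.97), *Id1* (0.93), *Rpl27* (0.92), *S100a11* (0.91) and *Dnajc25* (0.91). The last ranking is uncertain, since the level of *Slc39a14* was low and its 4 δ-like points rest on 6 to 18 UMIs each.

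Metallothionein transcripts were also seen outside the 3 main classes. PP-like cells, from 23, 20, 50 and 42 cells, had *Mt1* at 236, 1045, 199 and 633 CPM and *Mt2* at 66.8, 331, 32.8 and 289. The PP-like ratios with IFN-γ were 0.844 (0.617 to 1.16) for *Mt1* and 0.491 (0.239 to 0.987) for *Mt2*. The difference of PP-like from β-like cells was not tested. The non-endocrine classes were named from fixed markers. In at least 10% of cells, macrophage-like cells carried 10 of 10, endothelial-like cells 8 of 8 and mesenchymal-like cells 7 of 8, which follows largely from the naming. Mesenchymal-like cells also held the ductal marker *Spp1* at 4084 CPM, above *Sparc*, their own most abundant marker, at 2673. Macrophage-like cells (142 in all) had summed *Mt1* levels of 9885, 8926, 7066 and 5111 CPM, highest untreated. The median cell went the other way, at 12.5, 72.5, 42.3 and 32.9 *Mt1* UMIs per 10000, and the richest untreated cell held 683 per 10000. Cells with an *Mt1* UMI made up 77.1%, 100%, 95.1% and 93.1% of them. In mesenchymal-like cells (83 in all) *Mt1* was at 81.2, 703, 951 and 1190 CPM, and in endothelial-like cells at 81.4, 207, 23.0 and 137 from 12, 24, 4 and 14 UMIs. Endothelial-like insulin scaled as above would give 11.7, 29.8, 15.8 and 15.1 CPM, and the interval of the IFN-γ value, 6.25 to 58.8, includes its estimate. *Slc39a14* reached its highest levels in mesenchymal-like cells, at 63.2, 118, 44.8 and 92.5 CPM from 7, 20, 9 and 14 UMIs.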

How the data were processed

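The authors deposited 1 gene-by-barcode matrix of UMI counts per library, made with CellRanger (3.0.0 per the file headers) on the mouse genome mm10 per the labels. No normalised values were used. The labels and the study's methods name different versions of the library kit. Counts were read with Python 3.11.15 and scipy 1.17.1, and cells were filtered by the study's stated limits, which left 7471 of 12571 barcodes here, fewer than the study states. The cause of that difference was not tested. No doublet caller was run, and cells with more than 1 hormone above its limit were kept apart. The hormone limits were set after hormone shares had been seen. Clusters came from scanpy 1.11.5 and served as an alternative only.

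Levels are CPM, summed UMIs of a gene per 1000000 UMIs of a class. Intervals are exact Poisson for levels, Clopper-Pearson for shares and conditional binomial for ratios, all at 95%, and cover counting error only. The ratio computation was tested on simulated data. Groups of 1 library allow no test, so no p-value is given. The other zinc genes named are those at least 2-fold different with an interval leaving out 1 in any main class, up to 10. *Mt3* and *Mt4* are also named, as listed metallothioneins, though they did not meet this rule. List examples are the most abundant in β-like cells. The 5 genes and all lists were chosen with earlier results of these data known. Positions come from GENCODE M21 on GRCm38, where 30934 of 31053 identifiers matched.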

Additional observations from a re-analysis of the deposited data

Results flagged for a closer look

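In the IFN-γ library the metallothionein ratios to untreated lay above 1 in some classes and below 1 in others. The *Mt1* ratio to untreated was 1.78 in β-like and 1.99 in α-like cells but 0.545 in δ-like cells. The *Mt2* ratio was 2.10 in β-like and 2.56 in α-like cells but 0.491 in δ-like cells. Ratios below 1 were not particular to δ-like cells. PP-like cells had 0.844 (0.617 to 1.16) for *Mt1* and 0.491 (0.239 to 0.987) for *Mt2*. The difference between the classes was not tested, since each rests on 1 library per condition. For *Mt2* the δ-like direction turned without the 3 cells with the most *Mt2* (1.28) and with classes taken from clusters (1.67). For *Mt1* the ratio was 0.655 (0.533 to 0.806) without the 3 richest cells, and 0.882 with clusters, with an interval of 0.754 to 1.03 that includes 1.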

How the results depend on the processing

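No paired analysis was possible because each condition is 1 library. Of 402 ratios of the 5 genes recomputed under the alternatives, 331 stayed within their counting interval and 69 left it without a turn of a ratio whose interval left out 1. Of the ratios whose interval left out 1, 2 crossed 1, both for *Mt2* in δ-like cells with IFN-γ (1.67 with classes from clusters, 1.28 without the 3 richest cells, an alternative chosen after seeing the data). Another 17 crossed 1 from an interval that held it. Among them, clusters gave a δ-like *Mt1* ratio of 2.99 with both. The δ-like *Slc30a8* ratios are in these counts but rest on 4 untreated UMIs and are not read. The cause was not tested.

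Counts of the 5 genes moved as follows. The share of all tested genes was not kept for each setting, so nothing is read from these moves. At 4000 UMIs per cell 4 were higher in β-like cells with IL-1β. In α-like cells with IL-1β 2 were higher under the settings that end the call of *Slc30a1*. With hormone genes out of the totals, 1 was lower in β-like cells with IL-1β and 0 higher with IFN-γ, the latter also at 4000 UMIs per cell. In α-like cells with IFN-γ, 2 were higher without an upper gene limit, with a mitochondrial limit of 20% and without the 3 richest cells. In δ-like cells with IFN-γ, 0 were lower under those 3 settings, at 4000 UMIs per cell, as a mean over cells and with clusters, which gave 3, 1 and 3 higher with IL-1β, IFN-γ and both.

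Counts of zinc genes moved too. Neither the number of zinc genes with enough UMIs nor the share of all tested genes was kept for each setting. The moves are therefore not read as a result about these genes. With hormone genes out of the totals, β-like cells had 5 higher and 2 lower with IL-1β, 0 higher with IFN-γ and 2 lower with both. The last count was also 2 as a mean over cells and without cells high in *Hspa1a*, and 0 were higher with IFN-γ at 4000 UMIs. In α-like cells, 1 was lower with IL-1β at 4000 UMIs. There, 2 were higher with IFN-γ without an upper gene limit, at the 20% mitochondrial limit, at 4000 UMIs and as a mean over cells. With both, 3 were higher at the 20% limit, with hormone genes out, at 4000 UMIs, with clusters and with halved limits on other hormones, and 1 was lower at 4000 UMIs and without cells high in *Hspa1a*. In δ-like cells with IL-1β, 2 were higher at 4000 UMIs, and 9 higher and 1 lower with clusters. With IFN-γ, 0 were higher without an upper gene limit and at 4000 UMIs, and 0 lower under these, the 20% limit, clusters and a mean over cells. With both, 2 were higher without an upper gene limit and at 4000 UMIs and 7 with clusters.

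Requiring 100 UMIs left fewer genes to compare. Of all genes in β-like cells, 460 were then lower with IL-1β, 420 higher and 22 lower with IFN-γ, and 930 lower with both. In α-like cells 309, 169 and 353 were higher and 152, 18 and 199 lower with IL-1β, IFN-γ and both, and in δ-like cells 191, 99 and 351 higher and 103, 21 and 180 lower. Counts of *Slc30a1*, *Slc39a14* and *Slc30a8* in δ-like cells, at most 18 UMIs in a library, are too low to order the libraries.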

Other observations

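Acinar-like cells, 50 in all, carried *Mt1* at 2446, 4949, 7412 and 4442 CPM (untreated, then IL-1β, then IFN-γ, then the combination). Ductal-like cells, 70 in all, carried it at 782, 1517, 671 and 769. *Mt2* in macrophage-like cells was at 1108, 1377, 1183 and 1081 CPM, while the median cell held 0.658, 11.8, 7.99 and 5.16 *Mt2* UMIs per 10000 and 51.4%, 91.9%, 87.8% and 79.3% of cells had a UMI. In mesenchymal-like cells the summed level was at 0, 154, 189 and 654.

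Within β-like cells, metallothionein differed between cells with and without a heat shock response, taken as at least 10 *Hspa1a* UMIs per 10000. In the untreated library, 18 such cells held *Mt1* at 3198 CPM against 828 in the rest, and *Mt2* at 1297 against 212. With IFN-γ, 80 such cells held *Mt1* at 2714 against 1457. With IL-1β the order turned, *Mt2* being at 1368 in 98 such cells against 1993 in the rest, and with both cytokines at 1187 in 78 cells against 1836. *Slc30a8* was higher in these cells in the same libraries, at 399 against 177 with IL-1β and 244 against 138 with both. In the combined library, the 891 β-like cells with a UMI of *Nos2*, the inducible nitric oxide synthase, held *Mt2* at 1898 and *Slc30a8* at 135, against 1506 and 172 in the 366 cells without. The cells with a *Nos2* UMI were deeper, at a median of 12762 UMIs against 10543, and whether a UMI is seen depends on depth. All values of this paragraph are within 1 library each and were not tested.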
